A study of Mus musculus with 9 samples.

Results

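The genes described here are the Wnt ligands, their receptors and antagonists, and the inner feedback and transcription factors of the same pathway, measured in mouse kidney on whole-transcript arrays. They were chosen by symbol alone, as the Wnt, Fzd, Sfrp, Dkk, Nkd, Axin, Rspo and Tcf7 names together with Lrp5, Lrp6, Lef1, Wif1 and Notum, a rule that uses no measured value, although the set was proposed with earlier results of these data known. The rule finds 54 of the 22180 genes with a usable row on the array. They are 19 ligands, 11 genes with a Frizzled name, 2 co-receptors, 4 R-spondins, 11 secreted antagonists, 4 intracellular regulators and 3 transcription factors. One of the Frizzled names, Fzd10os, is a transcript from the strand opposite to Fzd10 and not a receptor, and Tcf7 was not analysed here.

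The study asked whether norursodeoxycholic acid (norUDCA), a side-chain-shortened bile acid, changes the kidney injury that follows a blocked bile duct. The arrays hold 3 sham-operated kidneys, 3 kidneys of mice with the common bile duct ligated (CBDL), and 3 of mice that were prefed norUDCA for 5 days and then had that ligation. All kidneys are labelled 3 weeks from surgery. A sham group fed norUDCA was not analysed here, and whether feeding went on after surgery, and the strain, sex and age of the mice, are not given in the sources used here. Each array is named by its group and the number in its label.

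Wnt proteins are secreted lipid-modified ligands that bind Frizzled receptors, with Lrp5 or Lrp6 as co-receptors for the branch that acts through beta-catenin. In that branch the destruction complex of Axin, Apc, casein kinase and Gsk3 is held off, beta-catenin collects in the cell and the Lef and Tcf factors switch on targets, among them the brakes Axin2, Nkd1 and Notum. Sfrp, Wif and some Dkk proteins block the ligand or the co-receptor outside the cell, and R-spondins strengthen the signal by keeping Frizzled at the surface. In kidney the pathway builds the nephron and collecting system in the embryo, is quiet in most adult tubules, and is known to be switched on again in tubular injury and fibrosis.

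Values are log2 signals, so a difference of 1 is a doubling. Array medians lay between 5.7 and 5.79, and the median standard error (SE) of a difference between ligated and sham kidneys was 0.14. The words rose, fell and called are used of a gene only where limma's adjusted p, over all 22180 genes, was under 0.05. Nothing in the labels says how the samples of a group relate beyond separate numbers, so p-values measure the spread between these arrays. The second principal component set sham_159 and CBDL_165 apart from the other 7 arrays, at -34.5 and -22.9 against 3.4 to 12, and norUDCA_CBDL_172 had lower signals of Y-linked genes (Kdm5d at 6.46 against 7.89 to 8.36 on the others). Counts of called members and of called genes among the further pathway genes are therefore given with and without these arrays. Tissue identity was checked with markers of the proximal tubule (9 of 9 measured), thick limb and distal tubule (6 of 6), collecting duct (8 of 8) and podocyte (4 of 6), and none of the measured ones was below the dim level of 5.2 in any group.

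Of the 54 members, 14 were dim, which means below 5.2, the level under which the dimmest 1 in 3 of all genes lie, in all 3 groups. These were Wnt1, Wnt2, Wnt3, Wnt3a, Wnt6, Wnt8a, Wnt8b, Wnt10b, Wnt16, Fzd10, Fzd10os, Rspo2, Sfrp5 and Dkkl1, and none of them was called in any comparison. The other 40 lay above that level in every group, and 15 of those 40 were called at least once. All 15 were called between CBDL and sham, and their share of the 54 is set beside that of all genes below. No matching share was worked out for all genes above the dim level, so 15 of 40 has no background here.

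The promoters of 5 called members are shown first. Nkd2 had the widest change, Axin2 is the feedback target most often read as a sign of beta-catenin activity, and Wnt4 was the ligand with the lowest p. Only 9 of the 15 called members had a promoter entry. Of these 9, Fzd1 and Tcf7l1 are those whose promoter holds the core of a Lef and Tcf binding site. Each line gives the 250 bases before the transcription start, 5′ to 3′ on the gene's strand, from RefSeq on GRCm38.p6. Capitals mark the 5 letters CTTTG or their reverse complement CAAAG, and a line with no capitals holds neither. The regions are chr13:73847632-73847881 on the minus strand for Nkd2, chr11:108920099-108920348 on the plus strand for Axin2, chr4:137277385-137277634 on the plus strand for Wnt4, chr5:4758217-4758466 on the minus strand for Fzd1 and chr6:72789046-72789295 on the minus strand for Tcf7l1.
Nkd2: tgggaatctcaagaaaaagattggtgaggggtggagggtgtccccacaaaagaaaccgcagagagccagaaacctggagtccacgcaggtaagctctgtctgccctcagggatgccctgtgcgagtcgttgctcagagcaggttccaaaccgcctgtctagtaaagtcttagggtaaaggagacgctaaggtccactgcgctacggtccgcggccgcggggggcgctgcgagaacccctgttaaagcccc
Axin2: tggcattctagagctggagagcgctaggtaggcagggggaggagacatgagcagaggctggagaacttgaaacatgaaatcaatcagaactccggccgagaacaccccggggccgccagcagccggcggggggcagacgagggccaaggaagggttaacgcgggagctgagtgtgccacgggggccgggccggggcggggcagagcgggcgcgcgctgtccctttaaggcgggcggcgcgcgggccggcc
Wnt4: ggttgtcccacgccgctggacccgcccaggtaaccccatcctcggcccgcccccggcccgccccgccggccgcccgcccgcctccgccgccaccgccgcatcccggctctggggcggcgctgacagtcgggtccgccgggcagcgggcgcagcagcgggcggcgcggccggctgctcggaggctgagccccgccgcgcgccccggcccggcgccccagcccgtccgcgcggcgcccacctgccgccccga
Fzd1: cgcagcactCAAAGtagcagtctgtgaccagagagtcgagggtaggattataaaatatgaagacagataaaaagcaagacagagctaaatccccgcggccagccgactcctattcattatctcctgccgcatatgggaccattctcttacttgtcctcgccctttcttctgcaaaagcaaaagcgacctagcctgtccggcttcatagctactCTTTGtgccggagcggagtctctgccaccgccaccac
Tcf7l1: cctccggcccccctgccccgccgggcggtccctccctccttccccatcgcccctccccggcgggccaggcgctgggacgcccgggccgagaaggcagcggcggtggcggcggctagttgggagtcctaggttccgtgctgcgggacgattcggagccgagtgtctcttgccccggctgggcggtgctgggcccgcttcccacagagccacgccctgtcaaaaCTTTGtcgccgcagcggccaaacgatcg
The first base of the core lay 241 and 37 bases before the start in Fzd1 and 28 bases before it in Tcf7l1. The 250 bases of Wnt4 were 85.2% G and C, those of Tcf7l1 73.6%, of Axin2 69.2%, of Nkd2 58.4% and of Fzd1 51.2%. Over the 35 members with an entry (42 starts), 20 starts (47.6%) held the core on either strand, against 48.6% of all 32851 mouse promoters of the same length. The longer motif of 7 letters, CTTTGAT or CTTTGAA on either strand (ATCAAAG or TTCAAAG in reverse), which always contains the core, was in 3 of the 42 starts (7.1%, in Dkk1, Wnt11 and Wnt5b) against 7.5% of all promoters. It was in none of the 9 called members with an entry. The core was in 2 of those 9 (Fzd1 and Tcf7l1), against 48.6% of all promoters. A match is a description of letters in this window and says nothing on binding.

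At 3 weeks after ligation 39 of the 54 members were not called against sham, and most of the 15 called ones were higher. The feedback regulator Nkd2 rose 7.72-fold, the ligand Wnt4 2.22-fold and the secreted glycoprotein Dkk3 2.17-fold, while the Wnt deacylase Notum fell to a level 3.16-fold lower. In all, 13 members rose and 2 fell, which is 27.8% of them against 21.8% of all genes called in this comparison (10.3% rose and 11.5% fell). The 13 include Axin2, whose row was chosen through the CBDL arrays, as described below. With the mean of all rows of a gene, 12 members rose and 1 fell. Differences were above 0 in 30 members and below it in 24, with a median of 0.087 on the log2 scale against -0.059 over all genes. For 20 of the 54 members the 3 ligated arrays did not overlap the 3 sham arrays, 15 higher and 5 lower. That share is near the 35.6% of all genes (3451 higher and 4438 lower). Without sham_159 and CBDL_165 there were 10 members that rose and 3 that fell, and without norUDCA_CBDL_172 there were 12 and 2. These are bulk tissue samples, so more or fewer cells of a type and more or less RNA per cell cannot be told apart in any result.

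**Figure D1:**
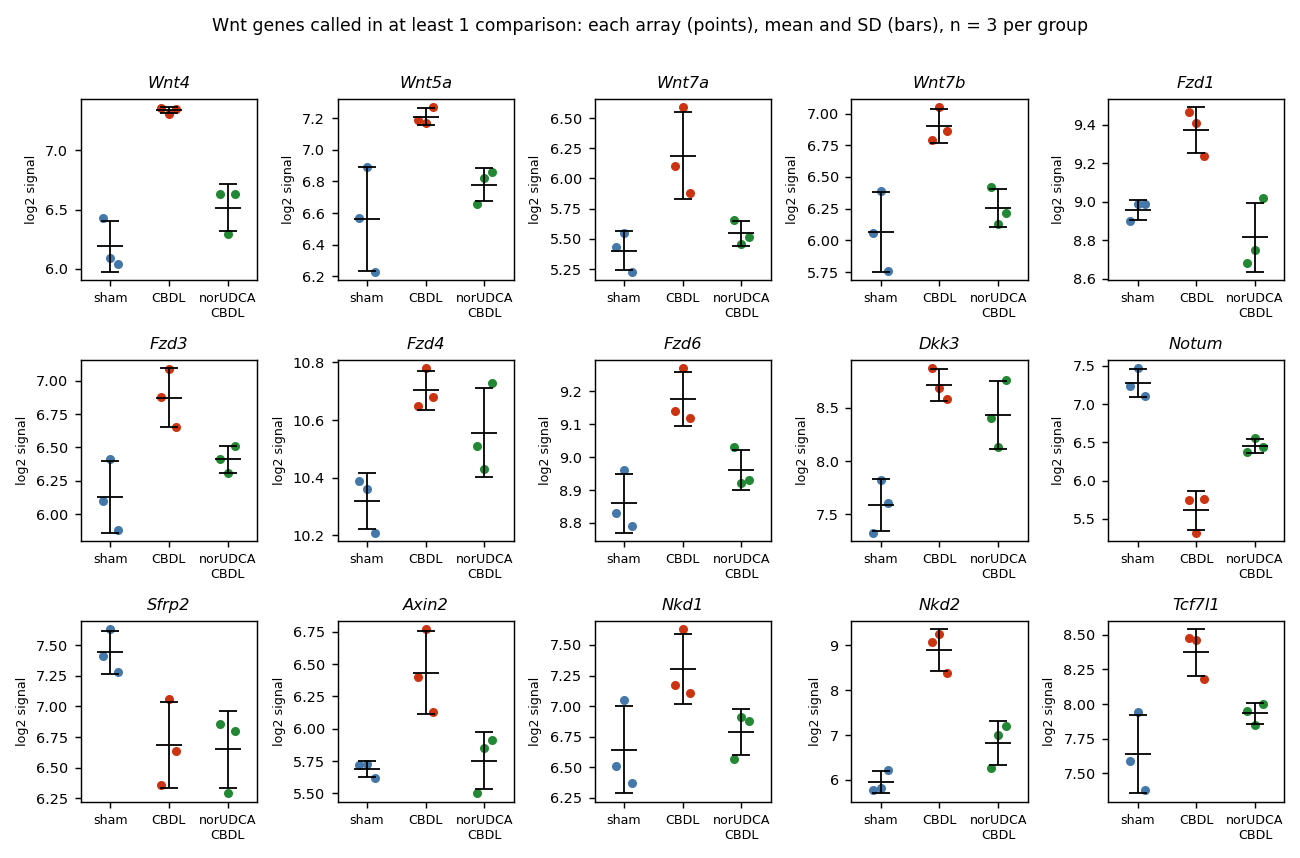
Log2 signal of the 15 called members on each of the 9 arrays, 1 panel per gene on its own axis, with points for arrays and bars for the mean and SD of each group of 3. In each panel the 3 CBDL points lie clear of the 3 sham points, above them in 13 genes and below them in Notum and Sfrp2. Axin2 is shown on the row used in the tests, which was chosen through the CBDL arrays.

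Among the 19 ligands, 4 rose after ligation (Wnt4, Wnt5a, Wnt7a and Wnt7b), none fell and 15 were not called. The called share of 21.05% is near the 21.8% of all genes. Wnt4, the ligand that turns mesenchyme into nephron epithelium in the embryo, had signals of 6.43, 6.09 and 6.04 in sham, 7.36, 7.31 and 7.35 in CBDL and 6.63, 6.29 and 6.63 in norUDCA-prefed CBDL kidneys. The 3 ligated arrays were close to each other and above every other array, and the prefed arrays overlapped sham. Its difference between CBDL and sham was 1.15 (SE 0.14, adjusted p = 0.000306).

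Wnt7b, which the collecting system uses to shape the medulla, lay at 6.06, 6.39 and 5.76 in sham, 6.79, 7.05 and 6.86 in CBDL and 6.42, 6.13 and 6.22 in prefed kidneys. Every CBDL array was above every other array, and the difference from sham was 0.83 (SE 0.16, adjusted p = 0.00443). The related ligand Wnt7a was at 5.43, 5.55 and 5.23 in sham, 6.1, 6.59 and 5.88 in CBDL and 5.66, 5.46 and 5.52 in prefed kidneys. It too showed no overlap between CBDL and sham, with a difference of 0.79 (SE 0.17, adjusted p = 0.00894).

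Wnt5a mostly signals without beta-catenin, through Ror receptors and cell polarity. Its signals were 6.57, 6.89 and 6.23 in sham, 7.19, 7.17 and 7.27 in CBDL and 6.66, 6.82 and 6.86 in prefed kidneys. The CBDL arrays lay within 0.1 of each other and above all sham arrays, with sham the wider group, and the difference was 0.65 (SE 0.15, adjusted p = 0.0126).

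Wnt9b, which the ureteric bud sends to the nephron progenitors, lay at 6.81, 6.74 and 6.88 in sham, 7.47, 7.05 and 7.04 in CBDL and 6.94, 6.97 and 7.13 in prefed kidneys. CBDL did not overlap sham, but CBDL_164 stood well above the other two ligated arrays and the difference of 0.38 (SE 0.13) was not called (adjusted p = 0.0675). Wnt11, a ligand of the ureteric bud tips, stayed within 5.89 to 6.09 on all 9 arrays, 5 of them at exactly the same value, and differed by -0.07 (95% interval -0.27 to 0.14) with overlapping arrays. Over the 15 uncalled ligands the differences ran from -0.37 to 0.38, and their 95% intervals together spanned -0.9 to 0.67.

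Of the 11 Frizzled names, 4 receptors rose after ligation (Fzd1, Fzd3, Fzd4 and Fzd6) and none fell. That is 36.4% called, against 21.8% of all genes. Fzd3, a receptor used in axon guidance and cell polarity, had signals of 6.1, 6.41 and 5.88 in sham, 6.88, 7.09 and 6.65 in CBDL and 6.41, 6.31 and 6.51 in prefed kidneys. Each CBDL array was above each array of both other groups, and the difference from sham was 0.75 (SE 0.16, adjusted p = 0.00667). Fzd1 was at 8.9, 8.99 and 8.99 in sham, 9.47, 9.41 and 9.24 in CBDL and 8.68, 8.75 and 9.02 in prefed kidneys, a rise of 0.41 (SE 0.11, adjusted p = 0.0272). The sham arrays of Fzd1 were within 0.1 of each other, and the prefed arrays spread to both sides of them.

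Fzd4, the receptor for norrin in blood vessels, lay at 10.39, 10.36 and 10.21 in sham, 10.65, 10.78 and 10.68 in CBDL and 10.51, 10.43 and 10.73 in prefed kidneys. CBDL was above sham without overlap and overlapped the prefed group, and the difference from sham was 0.39 (SE 0.11, adjusted p = 0.029). Fzd6, a polarity receptor, was at 8.83, 8.96 and 8.79 in sham, 9.14, 9.27 and 9.12 in CBDL and 9.03, 8.92 and 8.93 in prefed kidneys. CBDL was the highest group without overlap, and the rise from sham was 0.32 (SE 0.1, adjusted p = 0.0398). These 3 calls rested on few arrays. Fzd1 lost its call without sham_158, sham_160, CBDL_164 or CBDL_165 (adjusted p 0.0585 to 0.0914), Fzd4 without sham_160 or any CBDL array (0.0557 to 0.0936) and Fzd6 without any 1 array other than sham_159 (0.0533 to 0.114).

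The other Frizzled genes were not called after ligation, with differences between -0.44 for Fzd10, which is dim, and 0.35 for Fzd2. Fzd2 had 1 low sham array (5.65, 5.51 and 4.66, against 5.8, 5.67 and 5.4 in CBDL and 5.11, 5.18 and 5.44 in prefed kidneys), its groups overlapped, and its 95% interval of -0.18 to 0.87 allows a difference in either direction. The co-receptor Lrp6, at 11.49, 11.4 and 11.5 in sham, 11.47, 11.43 and 11.45 in CBDL and 11.58, 11.22 and 11.67 in prefed kidneys, differed after ligation by -0.01 (95% interval -0.28 to 0.26), and Lrp5 by 0.07. The R-spondins, which bind Lgr receptors, gave no call among 4, and Rspo3 was listed at 5.76 on 5 of the 6 sham and CBDL arrays and at 6.19 on CBDL_170, with 5.65, 5.57 and 5.9 in prefed kidneys. Across the 54 members, 13 (24.1%) had exactly the same value on at least 3 arrays, as did 24.3% of all genes. The step that made such repeated values is not given in the sources used here, and its part in the narrow spread of these genes was not tested.

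**Figure D2:**
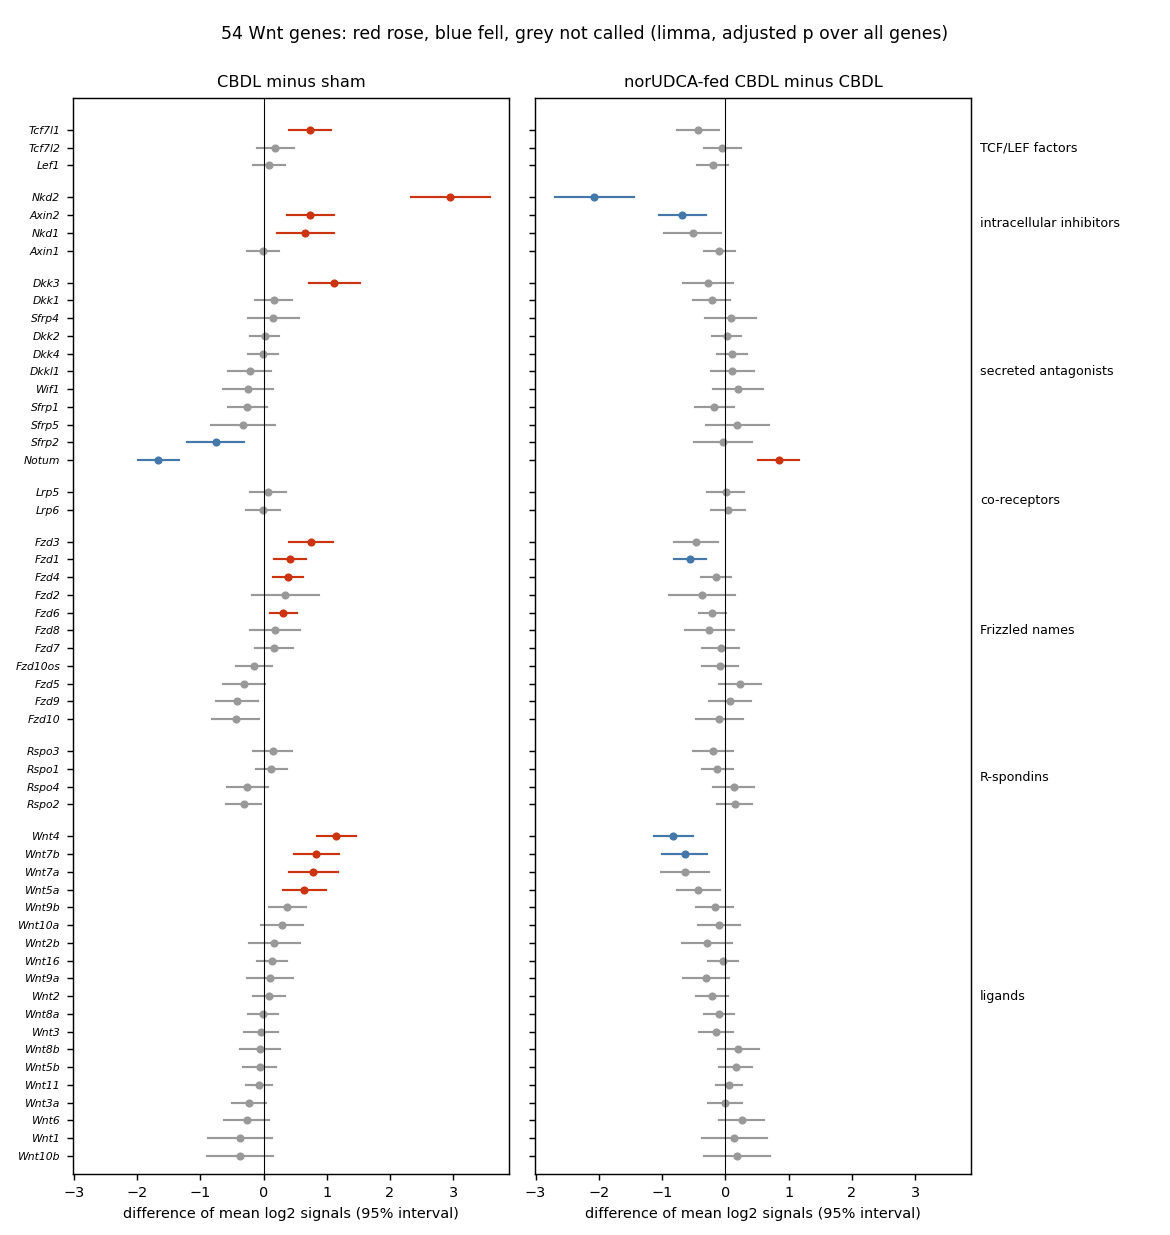
Differences of mean log2 signal with 95% intervals for all 54 members, ordered by role, for CBDL minus sham on the left and norUDCA-prefed CBDL minus CBDL on the right, with called genes marked. Nkd2 at 2.95 and Notum at -1.66 lie farthest from 0 on the left and lie on the opposite sides on the right, at -2.08 and 0.84.

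The genes placed by name among the secreted antagonists were split, and whether Dkk3 blocks Wnt signalling here was not tested. Dkk3, a Dickkopf family glycoprotein released by stressed tubules, rose, Notum and Sfrp2 fell, and 8 of the 11 were not called. The called share was 27.3%, against 21.8% of all genes. Dkk3 was at 7.33, 7.82 and 7.61 in sham, 8.87, 8.68 and 8.58 in CBDL and 8.4, 8.13 and 8.76 in prefed kidneys. Both ligated groups were above every sham array and overlapped each other, and the difference between CBDL and sham was 1.12 (SE 0.18, adjusted p = 0.0015).

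Notum removes the lipid from Wnt ligands and so silences them outside the cell. It was at 7.23, 7.47 and 7.11 in sham, 5.75, 5.32 and 5.76 in CBDL and 6.37, 6.55 and 6.44 in prefed kidneys. The 3 groups did not overlap, with sham highest, CBDL lowest and the prefed arrays between them. The difference between CBDL and sham was -1.66 (SE 0.15, adjusted p = 6.68e-05), the lowest adjusted p of the 54 members.

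Sfrp2, a decoy that binds Wnt ligands through a Frizzled-like domain, was at 7.41, 7.63 and 7.28 in sham, 6.36, 7.06 and 6.64 in CBDL and 6.86, 6.29 and 6.8 in prefed kidneys. Both ligated groups were below every sham array, and CBDL differed from sham by -0.76 (SE 0.2, adjusted p = 0.0245). That call was lost without sham_158, sham_159, CBDL_164 or CBDL_170 (adjusted p 0.0583 to 0.0895). Sfrp1, a decoy of the same family, was at 10.9, 10.83 and 10.85 in sham and 10.88, 10.33 and 10.6 in CBDL, an uncalled difference of -0.26 (SE 0.14) with overlapping arrays. Dkk2, which binds Lrp5 and Lrp6, stayed within 8.5 to 8.79 on all 9 arrays, 4 of them at exactly the same value.

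Of the 4 intracellular regulators 3 rose after ligation, Nkd2, Axin2 and Nkd1, with none falling and Axin1, the constitutive scaffold of the destruction complex, differing by -0.01. That is 75% called, against 21.8% of all genes. It counts Axin2 on a row chosen through the CBDL arrays, and with the mean of its rows Axin2 was not called. Nkd2, which binds Dishevelled and restrains the signal, was at 5.78, 5.83 and 6.23 in sham, 9.06, 9.25 and 8.37 in CBDL and 6.26, 6.99 and 7.21 in prefed kidneys. The groups did not overlap in any pair, and CBDL stood far above both others. The difference of 2.95 between CBDL and sham (SE 0.28, adjusted p = 9.98e-05) was the widest of the 54 members.

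Nkd1, the other Naked cuticle protein, was at 6.51, 7.05 and 6.37 in sham, 7.17, 7.63 and 7.11 in CBDL and 6.57, 6.91 and 6.88 in prefed kidneys. In both sham and CBDL the array set apart on the second component (sham_159 and CBDL_165) was the highest, and CBDL still lay above sham. Its rise of 0.66 (SE 0.2, adjusted p = 0.0397) lost the call without any 1 of 6 arrays, sham_158, sham_160, CBDL_164, CBDL_165, norUDCA_CBDL_175 or norUDCA_CBDL_179 (adjusted p 0.0558 to 0.132).

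Axin2 is induced by beta-catenin and rebuilds the destruction complex. It was at 5.72, 5.73 and 5.62 in sham, 6.4, 6.77 and 6.13 in CBDL and 5.5, 5.85 and 5.91 in prefed kidneys. On this row the CBDL arrays were above all 6 others, with a difference from sham of 0.74 (SE 0.17, adjusted p = 0.0102). A second row of the array for Axin2, dimmer on average over all arrays, gave 5.83, 5.84 and 5.9 in sham, 5.83, 5.2 and 5.69 in CBDL and 5.9, 5.83 and 6.1 in prefed kidneys. This second row was the brighter one on every sham array and the dimmer one on every CBDL array. The row used was therefore chosen through the CBDL arrays, where it is high, and its calls are not independent of that choice. The second row went the other way, by -0.28 (SE 0.16) after ligation and by 0.37 (SE 0.16) with norUDCA, and neither was called (adjusted p over all rows 0.345 and 0.404). With the mean of both rows, Axin2 differed by 0.23 between CBDL and sham and was not called (adjusted p = 0.161).

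The array had a second row for 3 more members, and these too differed from the brighter row. Notum fell by 1.66 on its brighter row and differed by -0.28 (SE 0.18) on the dimmer one, which was not called, and with the mean of its rows it fell by 0.97. With that mean Notum was 0.48 higher in prefed than in CBDL kidneys, still called, and differed by -0.49 between prefed and sham kidneys, no longer called. The dimmer row of Sfrp2 gave 0 (SE 0.14), and with the mean of its rows Sfrp2 was not called. Lrp6 gave -0.45 (SE 0.16) after ligation on its dimmer row, which was not called (adjusted p over all rows 0.112).

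**Figure D3:**
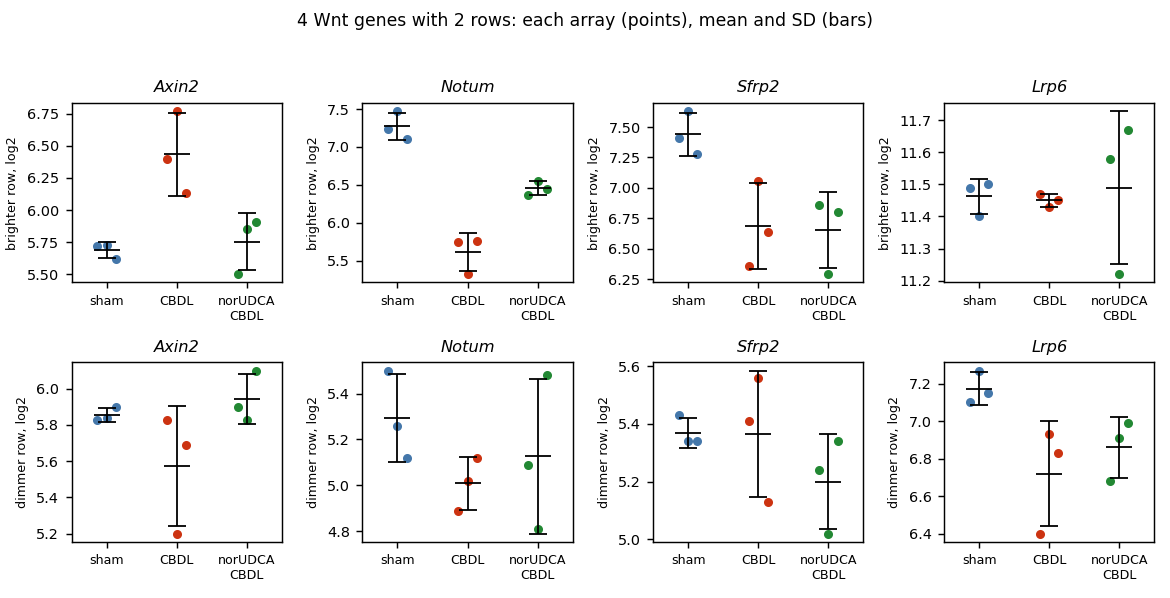
Log2 signal on each of the 9 arrays for both array rows of Axin2, Notum, Sfrp2 and Lrp6. The row brighter on average over the 9 arrays, used in the tests, is in the upper panels and the dimmer row in the lower ones. Points are arrays and bars are the mean and SD of 3. Axin2 differs by 0.74 between CBDL and sham on the brighter row and by -0.28 on the dimmer one.

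Of the transcription factors, Tcf7l1, which mostly represses Wnt targets, rose after ligation, and Lef1 and Tcf7l2 were not called. Tcf7l1 was at 7.59, 7.94 and 7.38 in sham, 8.48, 8.46 and 8.18 in CBDL and 7.95, 7.85 and 8 in prefed kidneys. The CBDL arrays were above every other array, and the difference from sham was 0.74 (SE 0.15, adjusted p = 0.00579). Lef1, at 5.99, 5.82 and 5.82 in sham, 6.15, 5.92 and 5.82 in CBDL and 5.8, 5.67 and 5.79 in prefed kidneys, differed after ligation by 0.09 (95% interval -0.16 to 0.34).

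The comparison of norUDCA-prefed CBDL with CBDL kidneys asks what the prefeeding changed under the same ligation. Nkd2 was 4.22-fold lower in the prefed kidneys, Wnt4 1.77-fold lower and Notum 1.8-fold higher, and Fzd1, Axin2 and Wnt7b were also lower. That is 1 member that rose and 5 that fell, 11.1% of the 54 against 6.8% of all genes (3.61% rose and 3.2% fell). The 5 include Axin2 on the row chosen through the CBDL arrays. With the mean of all rows of a gene, 1 member rose and 4 fell. The median difference was -0.099 against -0.003 over all genes. For 14 of the 54 members the groups did not overlap, 1 higher and 13 lower in prefed kidneys. That share is near the 24.2% of all genes (2572 higher and 2796 lower). This comparison and the one with sham share the CBDL arrays.

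By role, 2 ligands, 1 receptor and 2 intracellular brakes fell, 1 secreted antagonist rose, and no co-receptor, R-spondin or transcription factor was called. The called shares were 10.5% of ligands, 9.1% of Frizzled names, 9.1% of secreted antagonists and 50% of intracellular regulators. Over all genes 6.8% were called. From the signals given above, Nkd2 differed by -2.08 (SE 0.28, adjusted p = 0.00797), Wnt4 by -0.82 (SE 0.14, adjusted p = 0.011) and Notum by 0.84 (SE 0.15, adjusted p = 0.0123). In each of these 3 genes every prefed array was on the sham side of every CBDL array. Fzd1 differed by -0.56 (SE 0.11, adjusted p = 0.0205), Axin2 by -0.68 (SE 0.17, adjusted p = 0.0402) and Wnt7b by -0.64 (SE 0.16, adjusted p = 0.0419). The Axin2 value is from the row chosen through the CBDL arrays, and with the mean of both rows it was -0.15 and not called.

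Most of these calls turned on few arrays. Notum lost its call without norUDCA_CBDL_175 (adjusted p = 0.0591), Fzd1 without CBDL_164, CBDL_165, norUDCA_CBDL_172 or norUDCA_CBDL_175 (0.0653 to 0.0849), Axin2 without any 1 array but CBDL_170 (0.0539 to 0.14) and Wnt7b without any 1 array but sham_159 or sham_160 (0.0653 to 0.153). Nkd2 and Wnt4 kept theirs without any 1 array, at adjusted p of up to 0.0422 and 0.0499, close to the threshold. The count of 6 became 3 without CBDL_164, without CBDL_165 or without norUDCA_CBDL_172, 2 without norUDCA_CBDL_175, and 3 without both sham_159 and CBDL_165.

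Several members that had risen after ligation were lower in prefed than in CBDL kidneys without passing the test. Wnt7a differed by -0.64 (SE 0.17, adjusted p = 0.0575) with no overlap between the groups, and it was called without CBDL_170 (-0.8, adjusted p = 0.02). Fzd3 by -0.46, Nkd1 by -0.52, Tcf7l1 by -0.44 and Wnt5a by -0.43 also had no overlapping arrays, at adjusted p of 0.118, 0.182, 0.124 and 0.138. Dkk3 differed by -0.28 (SE 0.18, adjusted p = 0.474) and Sfrp2 by -0.04 (SE 0.2, adjusted p = 0.96), both with overlap, and the 95% interval of Sfrp2 ran from -0.49 to 0.42.

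Set against sham, the prefed ligated kidneys had 2 called members, Dkk3 higher by 0.84 (SE 0.18, adjusted p = 0.0358) and Notum lower by 0.82 (SE 0.15, adjusted p = 0.0175). They make up 3.7% of the 54 against 3.18% of all genes (1.82% rose and 1.37% fell), a share near the background, and the median difference was -0.02 against -0.048 over all genes. The prefed and sham arrays did not overlap in 10 of the 54 members, 4 higher and 6 lower, against 22.5% of all genes (1987 higher and 3001 lower). Dkk3 lost the call without sham_158, sham_160, CBDL_164, norUDCA_CBDL_172 or norUDCA_CBDL_179 (adjusted p 0.0541 to 0.135) and Notum without sham_159, norUDCA_CBDL_172 or norUDCA_CBDL_179 (0.0541 to 0.0851). No member was called without norUDCA_CBDL_172 or without norUDCA_CBDL_179, and Notum alone was called without both sham_159 and CBDL_165.

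Nkd2 remained 0.87 above sham (SE 0.28) with every prefed array above every sham array, but the adjusted p was 0.149. Sfrp2 was 0.79 lower (SE 0.2, adjusted p = 0.0737) and Sfrp1 0.43 lower (SE 0.14, adjusted p = 0.147), both without overlap. The prefed arrays of Sfrp1 were at 10.37, 10.55 and 10.36. Wnt4 was 0.33 above sham (SE 0.14, adjusted p = 0.261) with overlapping arrays.

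Beyond the 54 members, 85 of 90 further pathway genes on the lists used here were measured, and 17 of them rose and 2 fell after ligation (22.4%, against 21.8% of all genes, a share near the background). Their median difference was 0.104, against -0.059 over all genes. The lists were drawn up with earlier results of these data known. Without sham_159 and CBDL_165 18 of the 85 were called, and without norUDCA_CBDL_172 also 18. The secretion factors Wls and Porcn, which every Wnt ligand needs to leave the cell, were not called, and neither was beta-catenin itself (Ctnnb1, 0.16 above sham, adjusted p = 0.331). Among 16 other receptors and surface regulators, 4 rose and 1 fell (31.25% called, against 21.8% of all genes). The co-receptor Ptk7 rose by 1.3 (SE 0.13), from 6.37, 6.35 and 6.22 in sham to 7.61, 7.76 and 7.46 in CBDL, and Tpbg, Apcdd1 and Ror2 rose by 0.88, 0.55 and 0.42. Lgr4, the R-spondin receptor of most kidney epithelium, fell by 0.38 (SE 0.1). Lgr4 lost its call without sham_160 or CBDL_164 (adjusted p 0.069 and 0.0669), and Ror2 without sham_159, sham_160, CBDL_164, CBDL_170 or norUDCA_CBDL_172 (0.0519 to 0.114).

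Of 13 destruction complex and Dishevelled genes, 2 rose, a casein kinase, Csnk1e, by 1.3 (SE 0.12, adjusted p = 6.95e-05) and the scaffold Apc by 0.38 (SE 0.09). Csnk1a1, another casein kinase on the list, was not called (mean 10.26 in sham and 10.49 in CBDL). Csnk1e was at 7.07, 6.74 and 6.75 in sham, 8.17, 8.15 and 8.15 in CBDL and 7.56, 7.38 and 7.59 in prefed kidneys, and the 3 groups did not overlap. In the list of 20 nuclear partners of beta-catenin 1 gene rose, the corepressor Tle1, by 0.84 (SE 0.15), or by 0.34 with the mean of its array rows. Of 17 polarity and calcium branch genes, Nfatc4 and Nfatc2 rose by 0.85 and 0.43 and Vangl1, a core polarity protein, fell by 0.48. Called were 15.4% of the destruction complex list, 5% of the nuclear list and 17.65% of the polarity list. Over all genes the share was 21.8%. Nfatc2 lost its call without sham_159, CBDL_164 or CBDL_165 (adjusted p 0.0726 to 0.0897) and Vangl1 without sham_158, sham_159, CBDL_164, CBDL_165, norUDCA_CBDL_175 or norUDCA_CBDL_179 (0.0521 to 0.123), and Nfatc4 lost it without both sham_159 and CBDL_165 (0.0847).

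Among 20 genes known as Wnt targets, 8 rose after ligation and none fell (40.0%, against 21.8% of all genes called and 10.3% that rose). This list was drawn up with earlier results of these data known, so its share is not independent of them. Mmp7, a metalloproteinase, was at 4.91, 4.99 and 5.38 in sham, 9.62, 10.12 and 8.09 in CBDL and 6.55, 6.2 and 6.7 in prefed kidneys. Its rise was 4.18 (SE 0.42, adjusted p = 0.00013), with CBDL_170 the lowest of the ligated arrays and a sham mean of 5.1, below the dim level. With the mean of its array rows Mmp7 rose by 2.29. The hyaluronan receptor Cd44 rose by 2.66 (SE 0.13), fibronectin (Fn1) by 2.54 (SE 0.21) and the urokinase receptor Plaur by 1.71 (SE 0.14). Myc, Jun, Birc5 and Snai2, named after their values were seen, rose by 1.61, 1.23, 0.58 and 0.57. Birc5 was below the dim level in all 3 groups, and Snai2 lost its call without sham_160 or CBDL_164 (adjusted p 0.057 and 0.0608). Many of these genes answer to other signals as well, and Cd44, Mmp7, Fn1, Myc and Jun are also members of other lists drawn up for this tissue. The other 12 targets were not called, among them Ccnd1 (mean 10.63 in sham and 10.54 in CBDL), Lgr5 and Sp5. Sp5 differed by -0.44 (adjusted p = 0.0788).

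In prefed against CBDL kidneys, 9 of the 85 fell and none rose (10.6%, against 6.8% of all genes, of which 3.2% fell). Their median difference was -0.132, against -0.003 over all genes. These were Mmp7 (-2.79, or -1.57 with the mean of its rows), Fn1 (-1.63), Cd44 (-1.17), Myc (-1.09), Plaur (-0.98), Apcdd1 (-0.83), Ptk7 (-0.7), Csnk1e (-0.65) and Cthrc1 (-0.45). Cthrc1, a secreted partner of Wnt and Frizzled, lost its call without any 1 of the 9 arrays. Ptk7 lost it without CBDL_164, norUDCA_CBDL_172 or norUDCA_CBDL_175 (adjusted p 0.054 to 0.0612), Csnk1e without CBDL_164 or norUDCA_CBDL_175 (0.0525 and 0.0603) and Myc without CBDL_165 or norUDCA_CBDL_175 (0.0517 and 0.0648). The count of 9 was 5 without norUDCA_CBDL_175, and 7 both without norUDCA_CBDL_172 and without sham_159 with CBDL_165.

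Against sham, 5 of the 85 were higher in prefed kidneys and none was lower (5.88%, against 3.18% of all genes, of which 1.82% rose). Their median difference was 0.015, against -0.048 over all genes. They were Cd44 (1.49), Fn1 (0.91), Plaur (0.73), Csnk1e (0.65) and Ptk7 (0.59). Cd44 kept its call without any 1 array. Csnk1e lost it without sham_159, sham_160, norUDCA_CBDL_172 or norUDCA_CBDL_179, Plaur without sham_158, sham_160, norUDCA_CBDL_172 or norUDCA_CBDL_179, Ptk7 without any sham array, CBDL_164, norUDCA_CBDL_172 or norUDCA_CBDL_179, and Fn1 without any 1 array but CBDL_165 and CBDL_170 (adjusted p 0.0512 to 0.166 over these). The count was 2 without sham_158, 3 without sham_159 or CBDL_164, 1 without sham_160, norUDCA_CBDL_172 or norUDCA_CBDL_179, and 4 without both sham_159 and CBDL_165.

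**Figure D4:**
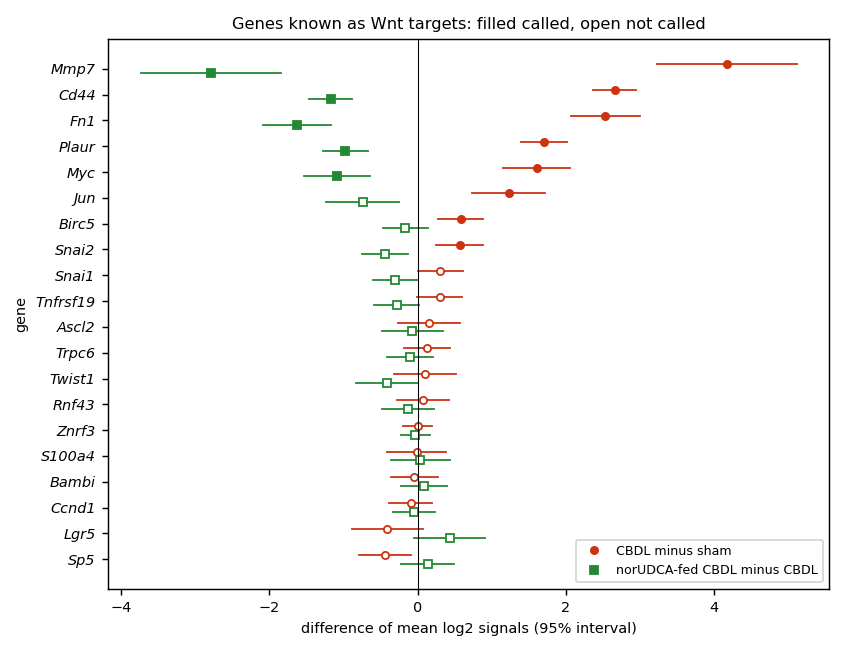
Group differences of mean log2 signal with 95% intervals for the 20 Wnt target genes in CBDL against sham and in norUDCA-prefed CBDL against CBDL. The 8 called genes of the first comparison all lie above 0, led by Mmp7 at 4.18, and 5 of them were called lower in the second.

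Markers of several cell types moved in the same comparisons, and their part in these results was not tested. After ligation 9 of 10 fibroblast and pericyte markers rose, and their summed signal on the log2 scale was 11.84 to 12.27 in sham, 13.48 to 13.71 in CBDL and 12.78 to 12.88 in prefed kidneys. All 8 macrophage markers rose after ligation and all 8 were lower in prefed than in CBDL kidneys, with sums of 10.56 to 10.99, 12.29 to 12.99 and 11.47 to 11.59. The 9 proximal tubule markers fell after ligation and 7 were higher in prefed than in CBDL kidneys, with sums of 15.47 to 15.54, 13.93 to 14.73 and 15.21 to 15.27.

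Markers of other cell types moved as well. Of 6 thick limb and distal tubule markers 3 fell after ligation and 1 was higher in prefed than in CBDL kidneys, with sums of 14.27 to 14.33, 13.9 to 14.28 and 14.37 to 14.47. Of 5 measured adipose markers 2 rose after ligation and 1 of the 5 was lower in prefed than in CBDL kidneys, with sums of 9.91 to 10.27, 10.47 to 12.01 and 10.07 to 11.2. Of 8 collecting duct markers 2 fell after ligation and 3 were higher in prefed than in CBDL kidneys, with sums of 12.47 to 12.66 in sham, 11.93 to 12.42 in CBDL and 12.74 to 12.84 in prefed kidneys. None of the 5 measured urothelial markers was called in any comparison, and their sums spanned 8.43 to 9.7, 9.08 to 10.29 and 8.88 to 9.51. Smooth muscle markers gave 2 that rose and 1 that fell of 5 after ligation (9.68 to 10.23, 10.33 to 10.46 and 9.93 to 10.18), and endothelial ones 1 that fell of 7 (12.22 to 12.38, 12.22 to 12.43 and 12.31 to 12.36). No fibroblast, macrophage, proximal tubule, collecting duct, urothelial, smooth muscle or endothelial marker was below the dim level in any group. Of 4 measured podocyte and 7 measured lymphocyte markers, 1 each fell after ligation. In prefed against sham kidneys, 7 of 8 macrophage, 4 of 10 fibroblast and 1 of 5 smooth muscle markers were higher. There 1 of 7 lymphocyte markers was lower, and no proximal tubule, thick limb or distal, collecting duct, podocyte, endothelial, urothelial or adipose marker was called.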

How the data were processed

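TRIzol total RNA of 9 mouse kidneys was biotin-labelled (WT PLUS reagents, Affymetrix), per the labels' protocols. The deposited values are log2 signals per array row, made by the authors with RMA in Partek 6.6, per the submitters' processing notes. The array model, the genome build of its rows and any batch step are not given in the sources used here, and rows have no positions. Of 41345 rows, 23521 carry 1 gene symbol in the platform annotation, 1814 several and 16010 none. Rows with 1 symbol were used, the brightest row over the 9 arrays standing for its gene, which gave 22180 genes. Dim genes stayed in.

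Differences were fitted over all 22180 genes by limma 3.58.1 (R 4.3.3) from all 9 arrays, a mean for each of the 3 groups and moderated variances (6 residual and 3.77 prior degrees of freedom), and p-values were adjusted by Benjamini-Hochberg, two-sided. With 3 arrays against 3 an exact permutation test of a single gene cannot go below 0.1. The code was tested on simulated data. The members and lists were chosen with earlier results of these data known. Named members are those called in any comparison plus Wnt9b, Wnt11, Fzd2, Lrp6, Sfrp1, Dkk2, Lef1 and Rspo3, which the rule always names with Wnt4, Wnt5a, Wnt7b, Fzd1, Dkk3 and Axin2, and per list of other pathway genes up to 4 with the lowest p. Genes printed for a comparison in which this rule does not take them (Ctnnb1, Lgr5, Sp5, Ccnd1, Csnk1a1, Ror2, Myc, Jun, Birc5 and Snai2 among them) were chosen after their values were seen. All 54 members matched the RefSeq gene table by identifier, and 35 had a promoter entry.

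The alternatives were a prior variance that follows intensity, array weights, unmoderated variances, only the 6 arrays compared, median centring, quantile normalization, dim genes left out, the mean of all rows of a gene and each array left out in turn. Leaving out sham_159 with CBDL_165, and fitting all 41345 rows, were added after the data were seen.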

Additional observations from a re-analysis of the deposited data

How the results depend on the processing

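Over the 19 alternatives no named gene that was called changed direction. After ligation the 15 called members became 10 to 17 under the settings other than leaving out an array and 10 to 15 with 1 array left out. Nkd2, Notum, Wnt4, Wnt5a, Wnt7a, Wnt7b, Dkk3, Fzd3 and Tcf7l1 kept their calls against sham under all 19. For norUDCA-prefed against CBDL kidneys, the 6 called members became 0 with variances that were not moderated, 3 without both sham_159 and CBDL_165, 3 with all rows in the fit, and 2 to 6 with 1 array left out. For prefed kidneys against sham, the 2 became 4 with array weights, 0 with unmoderated variances, 1 with only the 6 arrays compared, 1 with the mean of all rows, 1 without both sham_159 and CBDL_165, 0 with all rows in the fit, and 0 to 3 with 1 array left out. With the limma fit, 11 of the 54 members in the second comparison had an unadjusted p under 0.05, against 4275 of all 22180 genes. In the third comparison 8 members did, against 3626 of all genes, and both shares are near those of all genes. Of the 85 other pathway genes, the 19 called after ligation became 15 to 19 with 1 array left out. The 9 called between prefed and CBDL kidneys became 0 with unmoderated variances and 5 to 9 with 1 array left out. The 5 called between prefed and sham kidneys became 9 with array weights, 1 with unmoderated variances, 1 with all rows in the fit, and 1 to 6 with 1 array left out. The cause of these changes was not tested. Unmoderated variances ended the Nkd2 and Wnt4 calls between prefed and CBDL kidneys (adjusted p 0.0643 and 0.0664). Median centring moved the median difference of all genes after ligation from -0.059 to -0.102 and left the counts of called members as they were. No paired analysis was possible because the groups share no replicate numbers.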
